A study of Homo sapiens with 6 samples.

Results

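Intermediate filaments are rope-like cytoskeletal polymers built from related coiled-coil proteins. Keratins form obligate pairs of a type I and a type II chain in epithelial cells and the carcinomas derived from them, with KRT8 and KRT18 as the pair of simple epithelia. Lamins line the inner face of the nuclear envelope, and nestin is a large filament protein of progenitor cells that copolymerizes with vimentin. The mRNAs of 10 such genes were taken by their symbols from 26255 genes listed: the type I keratins KRT10, KRT18 and KRT19, the type II keratins KRT7, KRT8 and KRT80, the lamins LMNA, LMNB1 and LMNB2, and nestin (NES). All 10 were found.

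RNA-seq was performed on H1299 cells, a lung cancer cell line, in 3 libraries labelled shControl and 3 labelled shEphexin1, to ask how mRNA changes when Ephexin1 is depleted. Both groups were grown in RPMI-1640 with fetal bovine serum and carried a pSilencer plasmid with either a control shRNA or an Ephexin1 shRNA; the methods describe stable clones under hygromycin, whereas the labels name a neo plasmid. The shEphexin1 libraries share a name stem. The methods speak in general of independent repeats, but not of whether these libraries came from separate clones or cultures, so the p values measure the spread between these libraries, which may be technical. The values are FPKM, in which fragments are divided by the length of the transcript and by the size of the library. The reads behind them are not given, so depth is unknown and no counting interval is possible.

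The targeted gene, NGEF (Ephexin1), was 13.3, 11.7 and 16.4 FPKM with the control shRNA and 9.81, 8.25 and 10.5 FPKM with the Ephexin1 shRNA, which is 68.9% of the control mean (log2 fold change -0.53, limma adjusted p = 0.103). The groups did not overlap, but the difference did not pass the test. The adjusted p was 0.0338 with replicates 1 and 3 alone, 0.00572 with a term for replicate 2 and 0.000974 after the GC and length correction, each with a fold under 2. In these fits, in this order, 17.3%, 29.2% and 30.8% of all genes tested had an adjusted p of at most 0.05. Markers were only partly those of a lung epithelial cell. The epithelial markers CDH1, GRHL2 and OVOL1 and the lung markers NKX2-1, SCGB1A1 and FOXA2 were listed at 0 in all 6 libraries. The mesenchymal marker SNAI2 was also listed at 0 throughout. VIM, the filament of mesenchymal cells, was between 1979 and 2670.2 FPKM, and the epithelial marker ESRP2 between 0.969 and 1.37 FPKM. Among 11 markers of blood, endothelial and stromal cells, PTPRC, CD3E, HBB and LUM were listed at 0 throughout. The summed FPKM of those 11 was 38.3 to 54.2 in shControl and 54.3 to 71.8 in shEphexin1, nearly all of it CD68. The summed FPKM of 8 epithelial markers was 4.99 to 6.22 in shControl and 7.02 to 10.9 in shEphexin1, that of 6 lung epithelial markers 0.283 to 0.621 and 0.396 to 0.636, and that of 7 mesenchymal markers 2038 to 2388 and 2304 to 2725. CLDN4 made up most of the epithelial sum and VIM nearly all of the mesenchymal sum. None of these markers was called, and their part in the results was not tested.

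In control cells the lamins and KRT18 were the abundant mRNAs of the family. Per transcript length, mean FPKM in shControl ran from LMNA at 481, LMNB2 at 113, KRT18 at 88.9 and LMNB1 at 87.3 to KRT80 at 23.3, KRT8 at 6.78, KRT10 at 2.47, KRT7 at 1.63, NES at 0.158 and KRT19 at 0.0816. The ranges of LMNB2, KRT18 and LMNB1 over the libraries overlapped one another, as did those of KRT10 and KRT7 and those of NES and KRT19. Within each shControl library, however, LMNB2 was above KRT18, KRT10 above KRT7 and NES above KRT19, whereas the place of LMNB1 relative to LMNB2 and KRT18 changed from library to library. In shEphexin1 the order changed in that KRT18, at 46.2 FPKM, lay below both B lamins in every library, while the ranges of KRT8 and KRT10 overlapped.

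**Figure D1:**
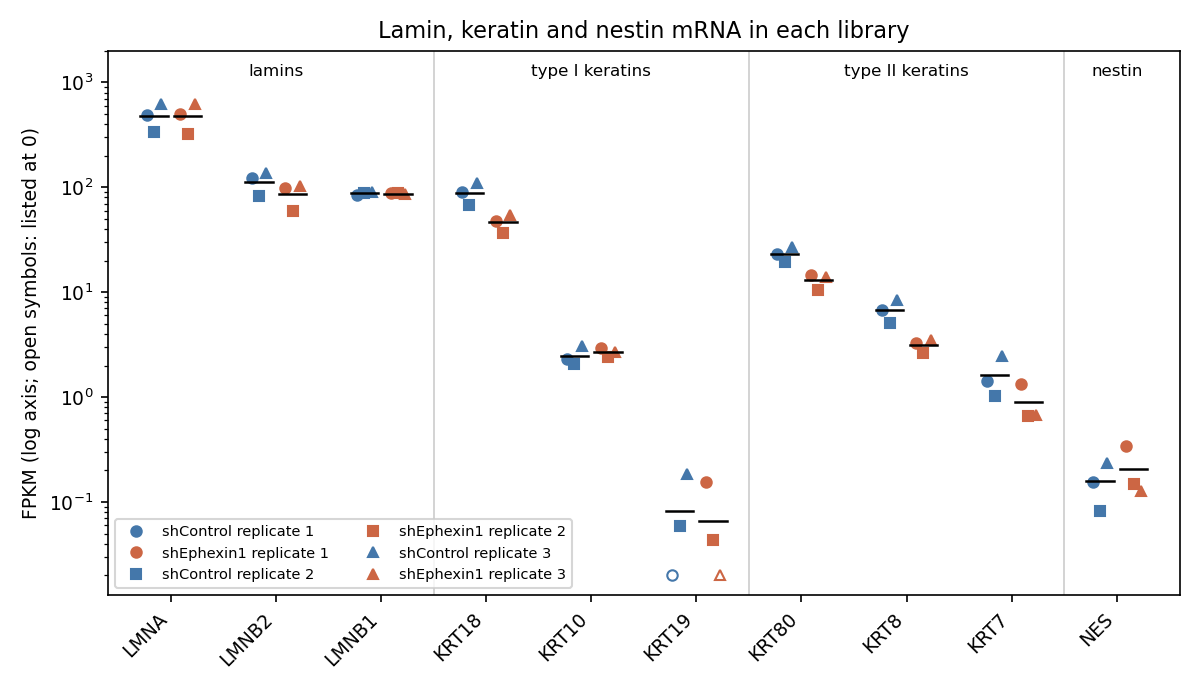
FPKM of each gene (log axis) in the 3 shControl (blue) and 3 shEphexin1 (orange) libraries, with the symbol giving the replicate number, black lines the group means and open symbols values listed at 0. KRT18, KRT80 and KRT8 were lower in every shEphexin1 library than in every shControl library, whereas LMNA and LMNB1 had nearly equal means.

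Upstream sequence from RefSeq (GRCh38.p14) was matched for 6 of the 10 members, and KRT7, KRT18, KRT19 and KRT80 were not matched. The 250 bases before an annotated start each of KRT8 and LMNB2 are shown because both members had lower means and both windows hold CCGGAAGT, a core motif of ETS transcription factors. The motif is read on the opposite strand, as ACTTCCGG in capitals. The KRT8 window is chr12:52926470-52926719 and the LMNB2 window chr19:2456960-2457209, both on the minus strand.
KRT8: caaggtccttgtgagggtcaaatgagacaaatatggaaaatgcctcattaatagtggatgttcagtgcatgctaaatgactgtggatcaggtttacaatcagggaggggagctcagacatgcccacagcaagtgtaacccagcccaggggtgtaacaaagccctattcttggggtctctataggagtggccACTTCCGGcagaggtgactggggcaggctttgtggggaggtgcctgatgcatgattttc
LMNB2: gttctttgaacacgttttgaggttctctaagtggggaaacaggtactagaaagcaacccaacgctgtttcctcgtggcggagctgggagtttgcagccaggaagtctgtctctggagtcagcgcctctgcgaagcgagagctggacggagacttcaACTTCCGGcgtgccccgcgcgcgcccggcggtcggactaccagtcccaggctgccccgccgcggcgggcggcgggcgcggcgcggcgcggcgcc
The match begins 59 bases before the RefSeq start used for KRT8 and 94 bases before that used for LMNB2. A gene can have several starts, and whether these cells use the ones shown is not known. The windows are on GRCh38 and cannot be set directly against the GRCh37 positions given below. On either strand, CCGGAAGT occurs in 3.42% of the 35116 windows of this length, and TGANTCA, the AP-1 motif, in 6.57% of them and in none of the 9 windows of these members. GGGCGG, an SP1 motif, occurs in 42.6% of all windows and in those of LMNA, LMNB1, LMNB2 and NES, and the E-box CACGTG in 6.34% and in LMNB1. TGACGTCA, the CRE, occurs in 1.65% and in none of these members. The motif shown was picked after the sequences were seen. A match is a string of letters and not an occupied site.

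KRT8, KRT18 and KRT80 mRNA was lower with the Ephexin1 shRNA, and the lamins LMNA and LMNB1 had nearly the same mean in both groups. The 3 keratins stood at 46.1%, 52.0% and 55.7% of their control means, and in none of them did the groups overlap. Each had an adjusted p between 0.025 and 0.05 over all 16020 genes tested. None of the 9 members that passed the filter on low FPKM was called at the thresholds of the study (adjusted p up to 0.025, with at least 2 times more or less mRNA), where 1.89% of all genes tested were called, 0.999% lower and 0.893% higher. With an adjusted p up to 0.05 and no threshold on the fold, 3 of the 9 members passed, against 7.01% of all genes. All 3 were lower, as were 4.32% of all genes, and 0 were higher, as were 2.69% of all genes. By limma, 3 members had an unadjusted p under 0.05, and they were these 3 genes. The share of all genes at that unadjusted level is not given here, but it is no smaller than the 7.01% after adjustment. The groups did not overlap for these 3 genes, all lower in shEphexin1, while 28.3% of all genes tested did not overlap, 15.4% lower and 12.8% higher. The median log2 fold change was -0.39 over the 9 members and -0.0093 over all genes tested. In bulk libraries, fewer cells with an mRNA and less of it per cell cannot be told apart.

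KRT18, the type I partner of the simple epithelial pair, was 89.6, 67.6 and 109 FPKM with the control shRNA and 47.6, 36.3 and 54.7 FPKM with the Ephexin1 shRNA. The highest shEphexin1 library was below the lowest shControl library. The mean was 88.9 ± 20.9 FPKM against 46.2 ± 9.32 FPKM (SD, n = 3 each). Limma put the log2 fold change at -0.94, with a standard error of 0.214 and an adjusted p of 0.0439. With replicates 1 and 3 alone it was -0.95 (adjusted p = 0.00615).

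KRT8, the type II partner, was 6.79, 5.13 and 8.44 FPKM with the control shRNA and 3.26, 2.65 and 3.48 FPKM with the Ephexin1 shRNA. All shEphexin1 libraries were again below all shControl libraries. The mean was 6.78 ± 1.65 FPKM against 3.13 ± 0.429 FPKM (SD, n = 3 each). Limma put the log2 fold change at -1.07, with a standard error of 0.210 and an adjusted p of 0.0304. KRT8 alone of the members exceeded a fold difference of 2, and with replicates 1 and 3 alone it was called (log2 fold change -1.15, adjusted p = 0.00705), as were 2.68% of all genes there.

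KRT80, a type II keratin of epithelia, was 23.3, 19.5 and 27.2 FPKM with the control shRNA and 14.5, 10.4 and 14.1 FPKM with the Ephexin1 shRNA. These groups did not overlap either. The mean was 23.3 ± 3.86 FPKM against 12.99 ± 2.27 FPKM (SD, n = 3 each). Limma put the log2 fold change at -0.84, with a standard error of 0.180 and an adjusted p of 0.0368. With replicates 1 and 3 alone it was -0.81 (adjusted p = 0.00652). For KRT8, KRT18 and KRT80 the two-sided exact permutation test gave p = 0.1, and groups of 3 cannot give a smaller value. Single libraries decided the side of the 0.05 threshold: without shControl replicate 1 the adjusted p was 0.134 for KRT8, 0.170 for KRT18 and 0.154 for KRT80, and it was over 0.05 for all 3 genes also without shControl replicate 3, shEphexin1 replicate 1 or shEphexin1 replicate 3. Without shEphexin1 replicate 2 that held for KRT18 (0.0649).

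KRT7, another type II keratin of simple epithelia, was 1.42, 1.03 and 2.45 FPKM with the control shRNA and 1.33, 0.662 and 0.675 FPKM with the Ephexin1 shRNA. Its groups overlapped, and the log2 fold change of -0.79 (standard error 0.373) had an adjusted p of 0.256 by limma. KRT10, the type I keratin of differentiated epidermis, was 2.30, 2.08 and 3.04 FPKM with the control shRNA and 2.95, 2.41 and 2.70 FPKM with the Ephexin1 shRNA. The groups differed by less than the spread of their libraries (log2 fold change 0.13, 95% interval -0.31 to 0.57, limma adjusted p = 0.738), so a difference of 2-fold lies outside its interval. KRT19, the smallest type I keratin, was listed at 0, 0.0595 and 0.185 FPKM with the control shRNA and 0.155, 0.0435 and 0 FPKM with the Ephexin1 shRNA. It was under the filter and was not tested.

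**Figure D2:**
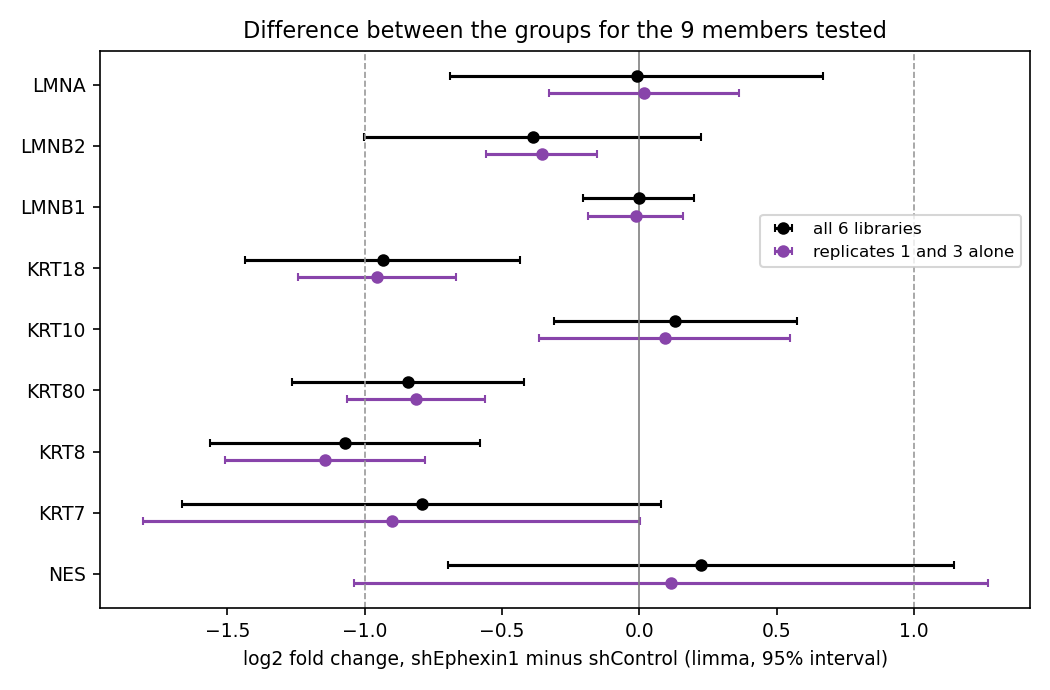
Log2 fold change (shEphexin1 minus shControl) with its 95% interval from limma for the 9 genes tested, in all 6 libraries (black) and in replicates 1 and 3 alone (purple), with dashed lines at a fold difference of 2. The intervals of KRT18, KRT80 and KRT8 lie below 0 in both fits, and that of LMNB2 does so only in replicates 1 and 3.

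Summed over the 6 keratins, the mRNA was 123, 95.4 and 151 FPKM with the control shRNA and 69.8, 52.4 and 75.7 FPKM with the Ephexin1 shRNA. KRT18 made up 70.9% to 72.6% of that sum in shControl and 68.2% to 72.3% in shEphexin1. The ratio of type I to type II keratin mRNA was 2.86 ± 0.128 in shControl and 2.88 ± 0.254 in shEphexin1 (SD, n = 3 each), so the groups differed by less than their SDs. Within the pair, KRT18 was 13.1 ± 0.124 times KRT8 in shControl and 14.7 ± 1.04 times KRT8 in shEphexin1, and the libraries of the groups did not overlap. Vimentin mRNA was 15.5 to 20.8 times the keratin sum in shControl and 35.3 to 42.7 times in shEphexin1, ranges that did not overlap. The sums and ratios were chosen with results known and were given no test.

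KRT8 and KRT18 have many processed copies in the genome. GENCODE release 44 annotates 51 pseudogenes named after KRT8 and 67 named after KRT18, of which 1 each is listed in the table, at up to 0.188 and 0.0460 FPKM. Reads shared with such copies may have been split, so the absolute levels of KRT8 and KRT18 and the ratio between them are uncertain. KRT19 has 5 such copies, of which 1 is listed, at up to 1.44 FPKM, above KRT19 itself.

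The keratin genes that were lower are on the long arm of chromosome 12, and 2 of them are neighbours. On GRCh37, KRT8 is annotated at chr12:53290971-53343738 on the minus strand and KRT18 at chr12:53342655-53346690 on the plus strand. The annotated spans overlap by 1084 bases. The library kit is stranded, but whether strand was used in counting is not given in the sources used here. KRT80 (chr12:52562780-52585798, minus strand) and KRT7 (chr12:52626304-52645970, plus strand) lie nearer the centromere. The type I genes KRT10 (chr17:38974369-38978866) and KRT19 (chr17:39679869-39684560) are on the minus strand of chromosome 17. Distances were taken from position 53290971, the lower end of the KRT8 span, which is not its transcription start. Within 500 kb of it were 13 other genes with a mean of at least 1 FPKM. Their median log2 fold change was -0.28, compared with -0.17 for 509 genes with such a mean on 12q and -0.035 for all 12638 of them. Of the 13, EIF4B, a translation initiation factor whose start lies at position 53400066, had a log2 fold change of -0.80 (limma adjusted p = 0.00380), and none was called. PFDN5 was at -0.61 (adjusted p = 0.0428), C12orf10 at -0.70 (0.0949) and AAAS at -0.55 (0.0652). IGFBP6 (0.44, adjusted p = 0.308) and MFSD5 (0.083, adjusted p = 0.857) were the ones with a positive value. The part of the position in the keratin values was not tested.

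The profiles of the 3 keratins over the libraries were the most alike among the members. The root mean square difference of log2 values, each gene centred on its own mean over the 6 libraries, was 0.093 between KRT8 and KRT18, 0.11 between KRT18 and KRT80 and 0.14 between KRT8 and KRT80. The remaining pairs of members were at 0.18 or more. Among 12657 genes with a mean of at least 1 FPKM, the gene nearest to KRT18 was FIBP (0.047), that nearest to KRT80 was PHB (0.064) and that nearest to KRT8 was ANAPC11 (0.072), none of them a keratin. The measure includes the difference between the groups, so genes with a similar fold change come out alike. FIBP, PHB and ANAPC11 had log2 fold changes of -0.91, -0.91 and -0.98. It also includes what replicate 2 has in common between the groups.

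LMNA, which encodes lamins A and C and lies at chr1:156052364-156109872 (GRCh37, plus strand), was the most abundant member, with 492, 335 and 616 FPKM with the control shRNA and 499, 321 and 620.4 FPKM with the Ephexin1 shRNA. The 2 groups covered nearly the same range, with replicate 2 lowest in each. The mean was 481 ± 141 FPKM against 480.3 ± 150.4 FPKM (SD, n = 3 each), a log2 fold change of -0.010 (95% interval -0.69 to 0.67, limma adjusted p = 0.989). The direction of this small difference turned with the scaling of the libraries (0.0011 with median centring, 0.37 with quantile normalization).

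LMNB1, the B lamin located at chr5:126112315-126172712 (plus strand), had the smallest SD relative to its mean in both groups. It was 85.2, 87.3 and 89.4 FPKM with the control shRNA and 87.3, 88.4 and 85.6 FPKM with the Ephexin1 shRNA. The mean was 87.3 ± 2.09 FPKM against 87.1 ± 1.41 FPKM (SD, n = 3 each). The log2 fold change was -0.0028 (limma adjusted p = 0.990), and its 95% interval, -0.21 to 0.20, does not reach a fold of 2 in either direction. Quantile normalization moved it to 0.14 (adjusted p = 0.479).

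LMNB2, the other B lamin, whose upstream window holds the same ETS letters as that of KRT8, was 122, 81.7 and 137 FPKM with the control shRNA and 98.7, 59.6 and 103 FPKM with the Ephexin1 shRNA. The groups overlapped, and replicate 2 was the lowest library of each. The mean was 113 ± 28.4 FPKM against 87.0 ± 23.8 FPKM (SD, n = 3 each). Limma put the log2 fold change at -0.39, with a standard error of 0.262 and an adjusted p of 0.431. In replicates 1 and 3 by themselves its log2 fold change was -0.36 with an adjusted p of 0.0340, and with a term for replicate 2 the adjusted p was 0.00367. With that term, 17.1% of all genes were lower with an adjusted p of at most 0.05. At an adjusted p of at most 0.05, replicates 1 and 3 alone gave 4 members that were lower (KRT8, KRT18, KRT80 and LMNB2), and 10.4% of all genes were lower there. LMNB2 lies at chr19:2427636-2456957 on the minus strand. Within replicate 2 the values were 81.7 and 59.6 FPKM, with 1 library per group.

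The ratio of A-type to B-type lamin mRNA was 2.38, 1.98 and 2.72 in the shControl libraries and 2.68, 2.17 and 3.29 in the shEphexin1 libraries. These ranges overlapped. LMNB2 was 1.30 ± 0.317 times LMNB1 in shControl and 1.00 ± 0.286 times LMNB1 in shEphexin1 (SD, n = 3 each), and the libraries overlapped.

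Nestin mRNA, from chr1:156638555-156647199 (minus strand), was little above the filter. NES was 0.156, 0.0818 and 0.234 FPKM with the control shRNA and 0.340, 0.148 and 0.128 FPKM with the Ephexin1 shRNA. The groups overlapped, with a log2 fold change of 0.22 (95% interval -0.70 to 1.14, limma adjusted p = 0.789), and without shEphexin1 replicate 1 the direction reversed (-0.071). The upper bound of its interval is above a fold of 2.

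Replicate 2 was below the mean of replicates 1 and 3 in both groups for every member tested except LMNB1. LMNB1, with 51.1% GC in its longest annotated transcript, differed by 0.00057 (shControl) and 0.033 (shEphexin1) on the log2 scale between replicate 2 and the mean of replicates 1 and 3. LMNA, with 61.0% GC, was lower in replicate 2 in both groups (-0.71 and -0.79), and LMNB2, with 61.1% GC, had differences of -0.66 and -0.76. KRT18, with 55.7% GC, was at -0.55 and -0.49, and KRT10, with 52.1% GC, at -0.33 and -0.22. Members did not follow GC content strictly. KRT7, with 62.0% GC, was at -0.80 and -0.47, and NES, with 59.3% GC, at -0.69 and -0.36, so that in shEphexin1 neither was further from 0 than KRT18. KRT8 and KRT80 were at -0.55 and -0.37 in shControl and at -0.33 and -0.46 in shEphexin1. The relation to GC content and what sets replicate 2 apart were not tested. Once GC content and transcript length had been regressed out within libraries, the log2 fold changes were -1.13 for KRT8, -0.95 for KRT18, -0.94 for KRT80, -0.58 for LMNB2 and -0.16 for LMNA, with adjusted p of 0.000361, 0.000472, 9.84e-05, 0.00216 and 0.335 by limma. In that fit 30.8% of all genes tested had an adjusted p of at most 0.05, and 18.5% were lower at that level.

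**Figure D3:**
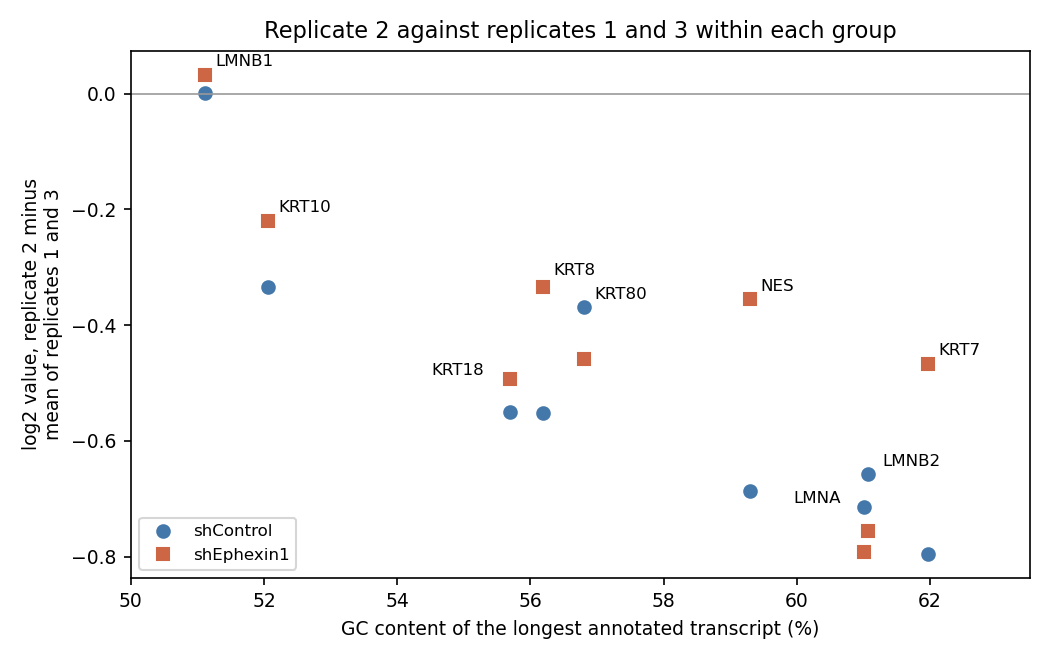
Difference between replicate 2 and the mean of replicates 1 and 3 within each group (log2(FPKM + 0.1), vertical axis) against the GC content of the longest annotated transcript (percent, horizontal axis) for the 9 genes tested, in shControl (blue circles) and shEphexin1 (orange squares). LMNB1 at 51.1% GC lies near 0, and LMNA and LMNB2 at about 61.0% GC lie between -0.66 and -0.79 in both groups.

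Of 98 other filament, linker and nuclear envelope genes in 6 lists, 45 were tested, 1 was called higher and 3 were called lower, where 0.893% of all genes tested were called higher and 0.999% lower. Of the other keratins, most were listed at 0 FPKM in every library. Of 25 other type I keratins 3 were tested (KRT15, KRT32 and KRT34) and 0 were called, and 15 were listed at 0 throughout. The tested ones had log2 fold changes of 0.36 for KRT15 and -0.25 for KRT34. Of 23 other type II keratins 19 were listed at 0 in all libraries and 0 were tested. The highest of them, KRT86, KRT79 and KRT81, reached 0.220, 0.170 and 0.0562 FPKM in 1 library each. KRT32, a hair keratin, was 0.515, 0.571 and 1.02 FPKM with the control shRNA and 0.293, 0.402 and 0.246 FPKM with the Ephexin1 shRNA (log2 fold change -0.92, limma adjusted p = 0.131). Those groups did not overlap, but the difference did not pass the test.

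Among 11 non-keratin filament genes, 7 were tested, with a median log2 fold change of 0.68, and 1 was called lower. NEFH, the heavy neurofilament subunit, fell from 0.416, 0.438 and 0.489 FPKM in shControl to 0.0534, 0.0873 and 0.0720 FPKM in shEphexin1 (log2 fold change -1.68, standard error 0.268, limma adjusted p = 0.0158). Every shEphexin1 value of NEFH was under the 0.1 FPKM of the filter. It was therefore tested only through shControl, the group in which it was high, so its call carries little weight. The call on NEFH was lost with a pseudocount of 1 FPKM (log2 fold change -0.43) and with replicates 1 and 3 alone (adjusted p = 0.0298). VIM was 2181, 1979 and 2334 FPKM with the control shRNA and 2566, 2240 and 2670.2 FPKM with the Ephexin1 shRNA, groups that overlapped (log2 fold change 0.20, adjusted p = 0.366). SYNM, the vimentin-binding filament protein synemin, was at 8.74, 7.40 and 8.61 FPKM in shControl but 14.8, 11.6 and 14.0 FPKM in shEphexin1 (log2 fold change 0.69, adjusted p = 0.0332), and BFSP1, a lens filament protein, had means of 2.65 and 4.41 FPKM (0.71, adjusted p = 0.0406). Neither was called at the study's thresholds. Both differed in the direction opposite to KRT8, KRT18 and KRT80.

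Of the 11 linkers and anchors tested, 2 were called (DSP and PKP2), both lower, where 0.999% of all genes tested were called lower, and the median log2 fold change over the list was -0.042. DSP, desmoplakin, which ties keratin filaments to the desmosome, fell from 0.717, 0.755 and 0.578 FPKM to 0.112, 0.114 and 0.147 FPKM (log2 fold change -1.80, standard error 0.250, limma adjusted p = 0.0103), and with a pseudocount of 1 FPKM its log2 fold change was -0.58 and the call was lost. PKP2, plakophilin 2 of the desmosomal plaque, fell from 3.81, 3.76 and 3.59 FPKM to 1.48, 1.24 and 1.22 FPKM (-1.44, standard error 0.154, adjusted p = 0.00389). FAM83H, a protein that organizes keratin filaments, was 0.563, 0.552 and 0.599 FPKM with the control shRNA and 0.251, 0.149 and 0.110 FPKM with the Ephexin1 shRNA (-1.35, adjusted p = 0.0356, not called). Among other desmosomal and plakin genes tested, JUP, PKP3, PKP4, PPL and MACF1 did not pass the test. Their log2 fold changes were -0.22 for JUP, 0.29 for PKP3, -0.042 for PKP4, -0.14 for PPL and 0.29 for MACF1. MACF1 (limma adjusted p = 0.145) was higher in every shEphexin1 library than in every shControl library, as were 12.8% of all genes tested. DST, the linker dystonin and also a plakin, was higher (log2 fold change 0.70, adjusted p = 0.0484, not called). PLEC, plectin, which crosslinks all filament types, was 116, 70.4 and 128 FPKM with the control shRNA and 164, 90.1 and 192 FPKM with the Ephexin1 shRNA (0.48, adjusted p = 0.432), with overlapping groups.

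At the nuclear envelope, 1 of 18 lamina partners was called, where 1.89% of all genes tested were called. SYNE3, which encodes nesprin-3, a protein of the outer nuclear membrane that binds plectin, rose from 5.74, 3.58 and 6.63 FPKM to 20.1, 13.1 and 23.3 FPKM (log2 fold change 1.81, standard error 0.285, limma adjusted p = 0.0152). Every shEphexin1 library was above every shControl library, and the call was lost with no filter on low values (adjusted p = 0.0785) and with no variance trend (adjusted p = 0.0269). The median of the list was 0.080, and log2 fold changes of the other 17 were between -0.25 and 0.39. None of the 6 enzymes that process lamins was called. ZMPSTE24, the protease that matures prelamin A, had a mean of 37.0 FPKM in shControl and 42.5 FPKM in shEphexin1, with overlapping groups, and ICMT and FNTA had log2 fold changes of 0.18 and 0.10. Without shControl replicate 1, 0 of the 45 partner genes tested were called by limma, where 0.381% of all genes tested were called. DSP, NEFH and SYNE3 then had adjusted p of 0.0725, 0.0838 and 0.0737 and PKP2 one of 0.0413. Genes named here at an adjusted p between 0.025 and 0.05, and VIM, PLEC and EIF4B, were picked after their values were seen. So were MACF1, the other neighbours of KRT8 and the single markers named.

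**Figure D4:**
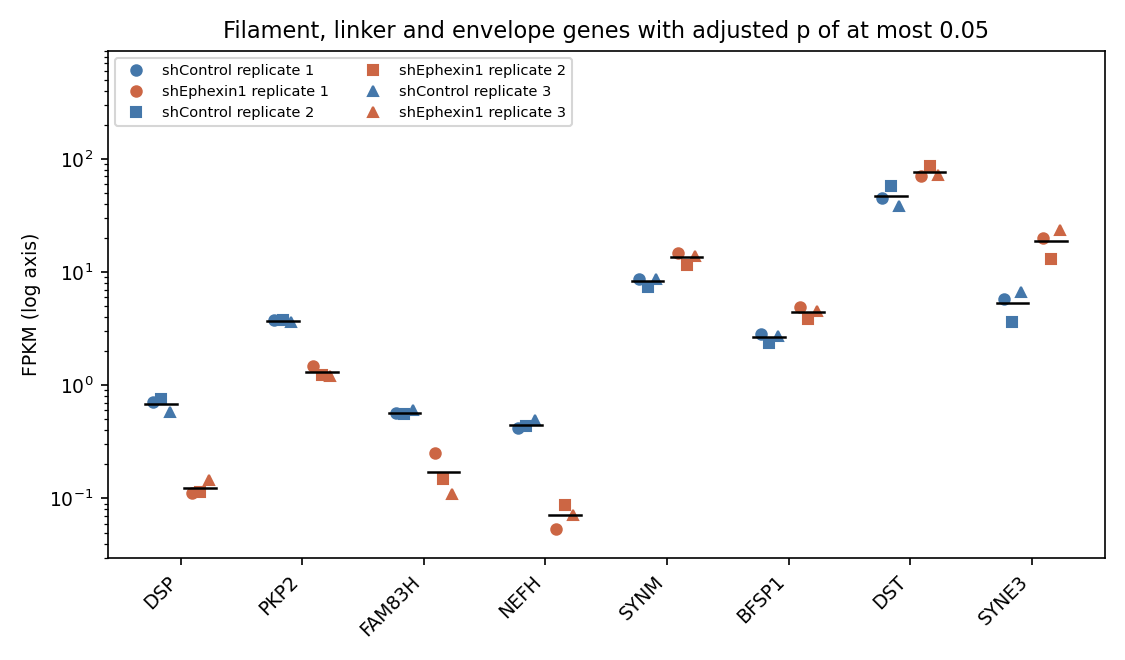
FPKM (log axis) of the 8 partner genes that reached an adjusted p of 0.05 or less in the 3 shControl (blue) and 3 shEphexin1 (orange) libraries, with symbols for the replicate number and black lines for group means. DSP, PKP2, FAM83H and NEFH lie lower and SYNM, BFSP1, DST and SYNE3 higher in every shEphexin1 library than in every shControl library. DSP, PKP2, NEFH and SYNE3 were called at the study's thresholds, and NEFH passed the filter on low FPKM only through shControl.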

How the data were processed

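The deposited values are FPKM per gene and library, which the authors calculated with Cuffdiff 2.2.1 (geometric normalization, pooled dispersion) after alignment to hg19 by TopHat 2.0.13. The annotation they used is not given in the sources used here. All 6 value columns were assigned by library name, and 0 were left out. A gene was tested if 3 or more libraries reached 0.1 FPKM (16020 tested, 10235 left out). Differences of log2(FPKM + 0.1) were tested in limma 3.58.1 (R 4.3.3, moderated variance with a mean trend), and p values were adjusted by the Benjamini-Hochberg method across every gene tested. Fold changes are on this scale and understate low genes. Positions, GC content and transcript lengths came from GENCODE release 44 on GRCh37. Named were the 10 members, NGEF, partner genes called or otherwise the 3 highest of their list, and the gene nearest in profile to each of the 3 members with the largest fold change. The members and lists were chosen with earlier results of these data known. The fit was tested on simulated data, in which 172 of 200 planted changes and 0 unchanged genes were called. The planted changes were larger than the keratin differences, and the noise was independent between libraries. The simulation therefore does not show how the fit treats changes of that size or a pattern shared by replicates. The 20 alternatives included leaving out each library.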

Additional observations from a re-analysis of the deposited data

How the results depend on the processing

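With median centring, quantile normalization, a term for replicate 2, replicates 1 and 3 alone, or the GC and length correction with or without the replicate block, 1 member (KRT8) was called in each, where 0 were called in the fit reported. These alternatives called 1.96%, 1.93%, 3.52%, 2.68%, 3.39% and (with the block) 3.41% of all genes. At an adjusted p of at most 0.05 without a fold threshold it was 3. With each library left out in turn, 0 to 1 members were called, the 1 being KRT8 without shControl replicate 2. These fits called 0.381% to 1.97% of all genes. KRT7, KRT8, KRT18, KRT80 and LMNB2 kept a negative log2 fold change under all 20 alternatives. Of the partner genes, 4 were called in the fit reported, 2 with a pseudocount of 1 FPKM (0.868% of all genes), 2 with a filter of 1 FPKM (1.67%), 8 at the 0.05 threshold (7.01%), and 0 to 3 with each library left out (PKP2 alone without shControl replicate 2 or 3 or shEphexin1 replicate 1 or 3). DSP and NEFH were the genes lost in both; the 1 FPKM filter removes them. The other causes were not tested.

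The replicate number as a block gave 1 called member (KRT8, adjusted p = 0.00106), with adjusted p of 0.000200 for KRT18, 0.000649 for KRT80, 0.00176 for LMNB2 and 0.00284 for NGEF, and 556 genes (3.47%) called in place of 303. Over all genes, 139 were called with a pseudocount of 1 FPKM, 168 with no filter, 564 with the term for replicate 2, 516 with the GC and length correction, 519 with that and the block, 1123 at the 0.05 threshold and 61 to 316 with each library left out. The numbers were not taken as pairs: the deviations from the group means correlated across genes at 0.091 for number 1, 0.43 for number 2 and 0.33 for number 3, although every library correlated best with its own number.

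Values near 0 changed sign. LMNA was at 0.0011 with median centring, 0.37 with quantile normalization, 0.016 with replicates 1 and 3 alone and -0.25 to 0.25 with each library left out. LMNB1 was at 0.0083 with median centring, 0.14 with quantile normalization and -0.020 to 0.014 with libraries left out, and NES at -0.071 to 0.43. PLEC was at -0.020 with the GC and length correction, with or without the block. The depth behind the FPKM is unknown, and 3 libraries per group limit the precision.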
